A study of Mus musculus with 20 samples.

Results

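CAP-D3, a subunit of the condensin II complex, was called in both genotypes at 8967 merged regions of chromosomes 1 to 19 of mouse embryonic fibroblasts, and 517 of these (5.77%) overlapped a region of the Polycomb mark H3K27me3. They were chosen from the peak calls in 3 steps. Peaks of the 2 CAP-D3 lists were merged where they shared at least 1 bp, which gave 20757 regions. Those with a peak of each genotype were kept, and of these, those that overlapped by at least 1 bp a merged H3K27me3 region with a peak in all 4 H3K27me3 lists, of which there were 7462. The presence of CAP-D3 in both genotypes and of H3K27me3 in all 4 lists is therefore how the 517 regions were picked, not a result. The other 8450 CAP-D3 regions of both genotypes serve for comparison.

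The cells were C57BL/6 fibroblasts of E13.5 embryos, in the labels' terms, at passage 4 and still proliferating. RbL cells carried the genotype Rb1L/L, an allele that alters the cleft of the retinoblastoma protein pRb through which it binds partners with an LXCXE motif. Wild-type (WT) cells were the reference. Chromatin immunoprecipitation followed by sequencing gave 1 CAP-D3 and 1 CAP-H2 library per genotype and 2 libraries each for H3K27me3 and for TFIIIC. Chromatin for TFIIIC was fixed with formaldehyde alone, and that for the other antibodies with the longer crosslinker EGS before formaldehyde. The labels do not say whether libraries of a genotype came from separate embryos or cultures, so p-values measure the spread between libraries, which may be technical. By the series title, the study asks how pRb brings condensin II to promoters.

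Condensin II is a ring-shaped complex of 2 SMC ATPases, the kleisin CAP-H2 and the HEAT-repeat subunits CAP-D3 and CAP-G2; it is best known for compacting chromosomes in mitosis and stays in the nucleus through interphase. H3K27me3 is set by Polycomb repressive complex 2 and marks silent developmental genes, among them the Hox clusters in cells where these are off. TFIIIC binds the internal promoters of tRNA genes for RNA polymerase III and occurs at further sites without the polymerase. The whole complex holds both CAP-D3 and CAP-H2, which is why CAP-H2 was read beside CAP-D3. A bound place can lack a peak call, so a missing call does not show that the subunit was absent.

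The values are peak calls with the authors' score per peak, on genome build mm9. Read depth per library is unknown. On chromosomes 1 to 19 the lists held 12926 RbL and 17192 WT peaks for CAP-D3, 42626 RbL and 42174 WT peaks for CAP-H2, 286175 and 291040 RbL against 195239 and 230951 WT peaks for TFIIIC, and 43610 and 55620 RbL against 24634 and 42944 WT peaks for H3K27me3. A longer list covers more of the genome and meets more regions, which bears on every share below. CAP-D3, CAP-H2 and 1 H3K27me3 library of each genotype share an input library. No annotation or sequence of mm9 was used, so regions are given by position.

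The regions spanned nearly the whole range of CAP-D3 scores, and most were covered by the mark over their full width. Their median width was 940 bp, with a range of 366 to 6146 bp, while that of the other CAP-D3 regions was 1082 bp. The median CAP-D3 score was 1224 in RbL and 1037 in WT, where the other regions had 1345 in RbL and 1072 in WT. As percentiles within each list these were 63.2 in RbL and 73.3 in WT, against 65.2 in RbL and 73.7 in WT for the other regions. The H3K27me3 region covered 326 of the 517 (63.1%) completely and at least 50% of 429, whereas the midpoint of 91 lay outside it, so that "inside" holds for most but not all. The overlap rule admitted a region by a single base on chromosome 17 from 86064072 to 86064946 (CAP-D3 scores 620 in RbL and 446 in WT), and left out one at 4 bp from the mark on the same chromosome from 35095951 to 35097000 (681 in RbL and 416 in WT). A further 89 CAP-D3 regions of both genotypes lay within 1 kb of an H3K27me3 region without touching it.

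Most of the 517 carried the mark in every library on the CAP-D3 site itself. A peak lay on the site in 477 and 483 of them in the RbL lists and in 415 and 461 in the WT lists. All 4 lists had a peak there in 377, 3 lists in 74, 2 in 40 and 1 in 26, the last being sites where the other lists had the mark elsewhere in the same domain. With each region assigned to the H3K27me3 region it overlapped most, there were 500 different ones, with a median width of 4396 bp and a maximum of 87482 bp, against 3127 bp for the 6945 H3K27me3 regions of all libraries with none of the 517. An overlap of 1 bp meets wide intervals more readily than narrow ones, so this difference is in part set by the rule and is given as a description. The midpoint of the CAP-D3 region lay at a median of 49.9% of the way through the domain, with 237 in the central one of 3 equal parts and 280 in the outer parts or beyond. Of these domains 17 held 2 of the regions, and the rest held 1 each. Another of the 517 lay within 100 kb of 102 regions, and the median distance between neighbours was 877024 bp.

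The regions included sites in the Hox clusters, the transcription factor genes that pattern the body axis and standard Polycomb targets. Of 8 windows set by general knowledge of where these genes lie in mm9, and not by an annotation, those of the 4 Hox clusters held 11 regions, which were spread as 2 in HoxA, 2 in HoxB, 5 in HoxC and 2 in HoxD. The widest H3K27me3 region measured 61651 bp at HoxA, 50012 bp at HoxB, 87482 bp at HoxC and 57202 bp at HoxD, of which the last held none of the 11. In the widest domain, at HoxC, the region on chromosome 15 from 102802289 to 102802920 had CAP-D3 scores of 1217 in RbL and 534 in WT, H3K27me3 scores of 3100 and 342 in RbL and of 1908 and 3100 in WT, and no CAP-H2 or TFIIIC peak. The strongest of the 11, also at HoxC, on chromosome 15 from 102857601 to 102858598, scored 3100 for CAP-D3 in RbL and 2392 in WT. It had CAP-H2 peaks of 330 in RbL and 333 in WT and a TFIIIC peak in WT library 1 alone (121).

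CAP-H2 was called at 4 of the 11 Hox regions in RbL and at 3 in WT. Over all 517 regions the shares were 32.7% in RbL and 33.5% in WT, and over all 8967 they were 73.9% in RbL and 72.1% in WT. TFIIIC was called in any library at 2 of the 11, both at HoxC, while 62.9% of the 517 and 41.6% of the 8967 had it in none. One of the 2, on chromosome 15 from 102841894 to 102842990, had TFIIIC scores of 308 and 196 in RbL and of 236 in WT library 2, and no TFIIIC peak in WT library 1. At HoxD, the region on chromosome 2 from 74542470 to 74543575 scored 2727 for CAP-D3 in RbL and 1437 in WT, with CAP-H2 in both genotypes (364 in RbL, 267 in WT). Its neighbour from 74550621 to 74551451 scored 564 in RbL and 188 in WT. No CAP-H2 peak overlapped it, but one lay within 1 kb in each genotype. The HoxA and HoxD windows each held 4 further CAP-D3 regions called in WT alone and none called in RbL alone, and HoxB 1 of each kind, while HoxC held neither. Over chromosomes 1 to 19, 7977 CAP-D3 regions were called in WT alone and 3813 in RbL alone. With 1 CAP-D3 library per genotype these counts have no replicate check.

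**Figure D1:**
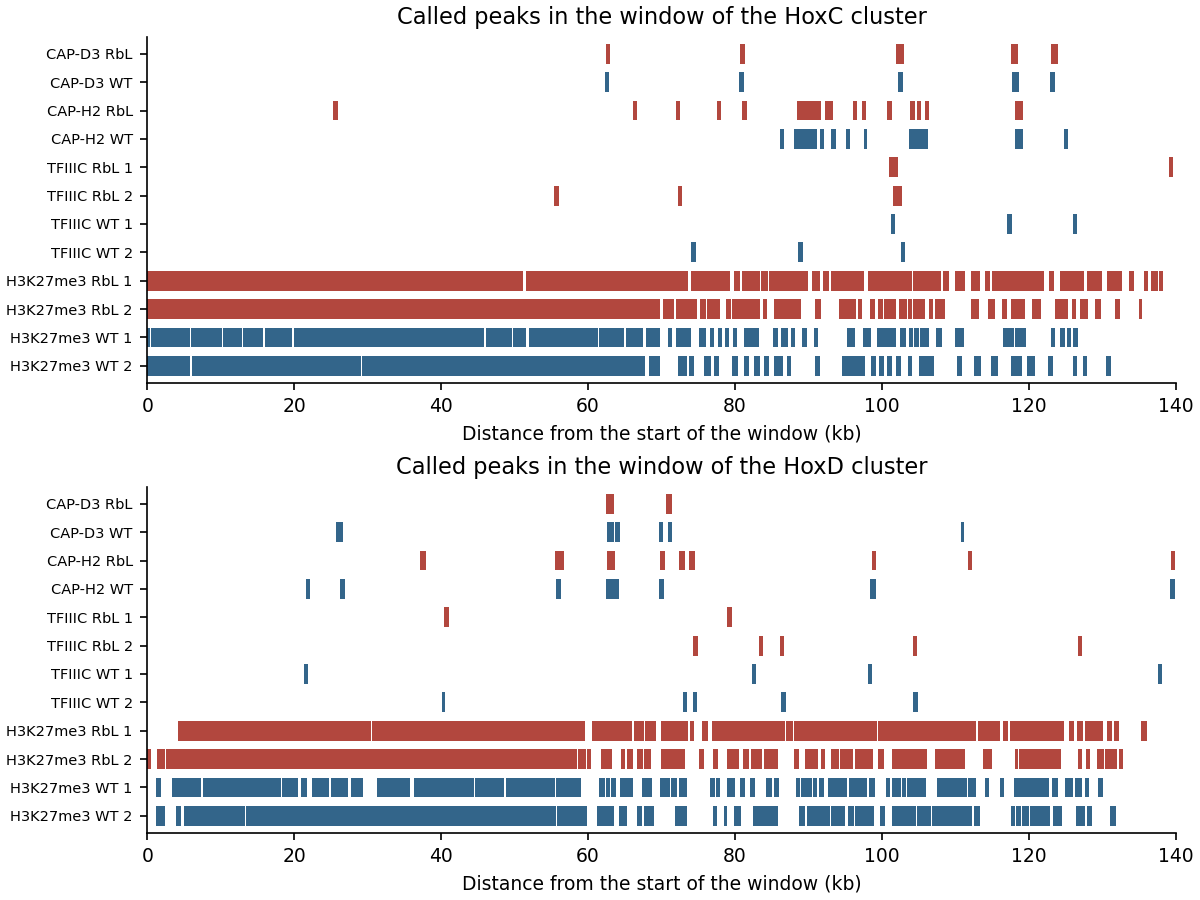
Called peaks in the windows of the HoxC and HoxD clusters, by distance in kb from the start of the window, with 1 row per library (red for RbL, blue for WT). Each bar spans 1 peak: CAP-D3 is called at few, narrow sites, while H3K27me3 covers much of the windows with gaps that differ between libraries. There are 5 shared CAP-D3 sites in HoxC and 2 in HoxD, and TFIIIC is sparse. CAP-H2 has more peaks than CAP-D3 in both windows and in each genotype, most of them away from the shared CAP-D3 sites.

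Other textbook Polycomb loci differed in whether they held such a site. The window of Pax6, a regulator of eye and neural development, held 2 regions in a single H3K27me3 domain of 40318 bp on chromosome 2, with CAP-D3 scores of 563 and 675 in RbL and of 247 and 345 in WT. A CAP-H2 peak was called at the second of them in WT alone (115). That of Pax3, its relative in the neural crest, held 6 H3K27me3 regions of up to 53445 bp and no CAP-D3 region of either genotype. At Ink4a-Arf-Ink4b, the locus of 2 inhibitors of cyclin-dependent kinases and of Arf, a region on chromosome 4 from 88927553 to 88928592 scored 2121 for CAP-D3 in RbL and 1322 in WT and had CAP-H2 peaks in both genotypes (87.5 in RbL, 181 in WT). It was covered to 63.5% by its domain, and of the 4 H3K27me3 lists RbL library 2 alone had a peak on the site. In the imprinted H19-Igf2-Kcnq1 window, 1 region on chromosome 7 from 149846262 to 149847209 scored 2222 in RbL and 1285 in WT, without CAP-H2 or TFIIIC.

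The highest-scoring regions were a mixed set. A CAP-D3 score of at least 3100 in both genotypes was reached by 94 of the 517, which tie at the top by the lower of the 2 within-list percentiles. Ordered among these by the mean percentile and then by width, the first was on chromosome 13 from 56322494 to 56323387, with CAP-D3 scores of 3100 in RbL and 3138 in WT, H3K27me3 of at least 2826 in every list, no CAP-H2 peak and a TFIIIC peak in RbL library 2 alone (429). The second, on the same chromosome from 113368181 to 113368950, scored 3100 in RbL and 3126 in WT and had a peak in all 12 lists, with CAP-H2 scores of 1920 in RbL and 1140 in WT. The third, on chromosome 12 from 112512318 to 112513504, scored 3100 in RbL and 3111 in WT and had neither CAP-H2 nor TFIIIC. The first and the third thus carried high CAP-D3 and H3K27me3 scores with no call for the other subunit. The fourth, placed by its width, lay on chromosome 17 from 39979797 to 39985942, was the widest of the 517 and had the tied top score of 3100 in each of the 12 lists.

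Some of the regions had peaks with every antibody. Of the 517, 62 (11.99%) had a peak in all 12 lists. None of the other CAP-D3 regions had one in all 12, but the rule largely fixed this. Of the 378 CAP-D3 regions of both genotypes with all 4 H3K27me3 lists on the site, 377 were among the 517. A peak in all 8 CAP-D3, CAP-H2 and TFIIIC lists, which the rule did not fix, was found at 65 of the 517 (12.6%, exact binomial 95% interval 9.84 to 15.7) and at 764 of the 8450 other regions (9.04%, 8.44 to 9.67). The 62 lay in narrow H3K27me3 regions, with a median width of 1113 bp where the remaining 455 had 4796 bp. Whether these are sites where chromatin is recovered with any antibody was not tested, as no control immunoprecipitation was analysed, and the main shares are also given without the 65.

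CAP-H2, the other condensin II subunit, was called at far fewer of the regions in H3K27me3 than at the other CAP-D3 regions. In RbL, 169 of 517 had a CAP-H2 peak (32.7%, exact binomial 95% interval 28.7 to 36.9), against 6458 of 8450 other regions (76.4%, 75.5 to 77.3). In WT it was 173 of 517 (33.5%, 29.4 to 37.7), against 6292 of 8450 (74.5%, 73.5 to 75.4). The difference between the 2 sets of regions was −43.7 percentage points in RbL (95% Newcombe interval −47.7 to −39.5) and −41.0 in WT (−45.0 to −36.7). These intervals cover counting error only and treat regions as independent. With 1 CAP-H2 library per genotype there is no spread between replicates and no test was made. Without the regions with a peak in all 8 lists, a choice made after the data were seen that takes out CAP-H2 regions from both sets, the shares were 23.0% in RbL and 23.9% in WT, against 74.1% in RbL and 71.9% in WT for the other regions.

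**Figure D2:**
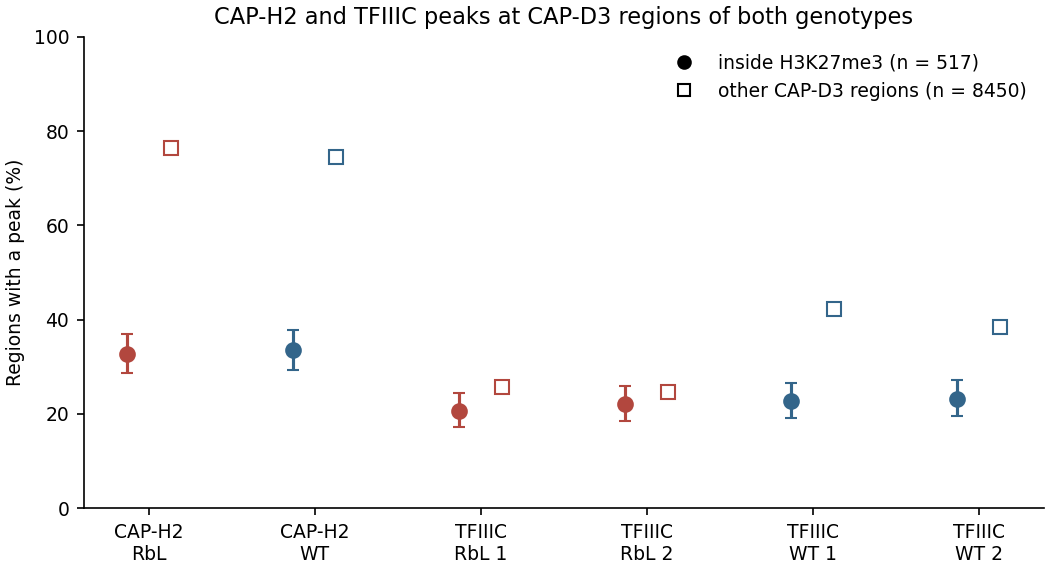
Share of regions with a CAP-H2 or TFIIIC peak in each library, in percent, for the 517 CAP-D3 regions in H3K27me3 (filled) and the 8450 other CAP-D3 regions of both genotypes (open), in RbL (red) and WT (blue), with exact binomial 95% intervals. CAP-H2 is at 32.7% in RbL and 33.5% in WT for the filled points, against 76.4% in RbL and 74.5% in WT for the open ones, and the gap in TFIIIC is wider in the WT libraries.

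Absence of a CAP-H2 call was mostly shared by the genotypes. Neither list had a CAP-H2 peak at 314 of the 517 (60.7%), where the other regions gave 16.9%, and both lists had one at 139 (26.9%, against 67.8%). A CAP-H2 peak in RbL and not in WT was found at 30 regions (5.80%), with a background of 8.48% over all 8967 CAP-D3 regions of both genotypes. A peak in WT and not in RbL was found at 34 (6.58%), with a background of 6.67%. Where no CAP-H2 peak overlapped, the nearest one was rarely close. It lay within 1 kb at 16 of 348 regions in RbL and 18 of 344 in WT, and the median distance was 25598 bp in RbL and 27009 bp in WT, against 15288 bp in RbL and 15543 bp in WT at the other CAP-D3 regions without CAP-H2. The CAP-H2 peaks present had a median score percentile in their own lists of 71.3 in RbL and 71.3 in WT, against 75.6 in RbL and 77.0 in WT at the other regions. Apart from regions called in all 8 lists, the medians were 46.0 in RbL and 48.0 in WT, against 73.7 in RbL and 75.0 in WT.

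The lower CAP-H2 share held at every level of CAP-D3 strength and width. With all 8967 regions cut into 4 equal classes by CAP-D3 score, the share in H3K27me3 was 19.8%, 30.1%, 30.6% and 51.9% from the lowest to the highest class in RbL, and 20.8%, 27.7%, 34.7% and 52.8% in WT. The other regions gave 75.0%, 73.5%, 76.5% and 80.6% in RbL and 72.0%, 72.4%, 74.5% and 78.9% in WT. Without the regions with a peak in all 8 lists, the shares in H3K27me3 were 14.7%, 22.1%, 19.4% and 39.3% in RbL and 15.8%, 19.5%, 24.2% and 40.5% in WT, and those of the other regions between 70.2% and 77.3%. The 517 were not concentrated among weak regions, with 101, 166, 144 and 106 in the 4 classes. By width, the widest class held 66 of them, of which 60.6% in RbL and 62.1% in WT had CAP-H2, against 88.1% in RbL and 86.8% in WT for the other regions of that width.

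CAP-H2 shares were lower where more H3K27me3 lists had a peak, counting lists with a peak on the CAP-D3 region itself, a count over all 8967 regions that does not depend on the width of the domain. It was called in RbL at 76.9% of the 7838 regions with no H3K27me3 peak, 77.6% of the 468 with a peak in 1 list, 48.3% of the 149 with 2, 32.1% of the 134 with 3 and 31.5% of the 378 with 4. In WT the shares were 75.0%, 75.0%, 43.0%, 36.6% and 32.0%. The step lay between 1 and 3 lists. Without the regions with a peak in all 8 lists, the shares at 4 lists were 18.0% in RbL and 18.7% in WT, and those with no list 74.8% in RbL and 72.7% in WT. TFIIIC at 4 lists was at 25.9 ± 0.75% in RbL and 26.1 ± 0.19% in WT over all regions, and at 11.4 ± 0.89% in RbL and 11.55 ± 0.22% in WT without them (SD, n = 2 libraries each). This is a description of 1 CAP-H2 library per genotype.

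**Figure D3:**
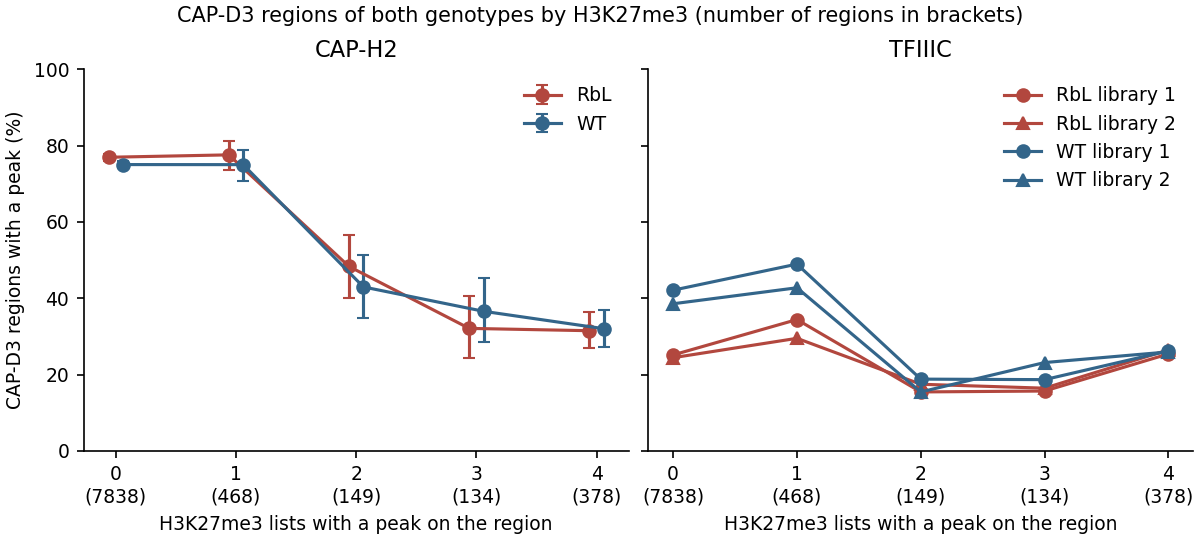
Share of the 8967 CAP-D3 regions of both genotypes with a CAP-H2 peak (left, exact binomial 95% intervals) or a TFIIIC peak in each library (right), in percent, by the number of H3K27me3 lists with a peak on the region. CAP-H2 is at 77.6% in RbL and 75.0% in WT with 1 list and at 31.5% and 32.0% with 4, and the RbL and WT TFIIIC libraries overlap with 2 and with 4 lists but not with 3, where RbL minus WT is −4.85 points.

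The TFIIIC shares of the RbL and WT libraries lay close together at the regions in H3K27me3 and further apart at the other CAP-D3 regions. A TFIIIC peak overlapped 107 and 114 of the 517 in the RbL libraries (20.7% and 22.1%) and 117 and 120 in the WT libraries (22.6% and 23.2%). The groups did not overlap, and RbL minus WT was −1.55 percentage points (21.4 ± 0.96% in RbL and 22.9 ± 0.41% in WT, SD, n = 2 each). The two-sided exact permutation p was 0.33, which is the smallest this design allows. With equal numbers of top-scoring TFIIIC peaks per library it was −3.77 points. At the 8450 other regions the shares were 25.6% and 24.7% in RbL and 42.2% and 38.5% in WT, a difference of −15.2 points with the same exact p. The difference between these differences was 13.6 points, with no overlap of the RbL and WT libraries (two-sided exact permutation p 0.33), again the smallest p possible.

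Set against the other CAP-D3 regions within a library, the share in H3K27me3 was lower in 4 of 4 TFIIIC libraries over all widths. The differences were −4.91 and −2.62 points in RbL and −19.5 and −15.3 points in WT. The mean was −10.6 ± 8.12 points (SD, n = 4), with a two-sided exact sign-flip p of 0.125, again the smallest possible. With equal numbers of top-scoring peaks the mean was −5.39 points (exact p 0.5), and RbL minus WT of these differences was 16.8 points. With all 4 H3K27me3 lists on the site the mean was −6.41 points (exact sign-flip p 0.5), and RbL minus WT 14.9 points. Under both, the RbL libraries were thus on average higher in H3K27me3 and the WT libraries lower. Where TFIIIC had to cover at least 50% of the region, the sign of the mean over the 4 libraries turned, to 3.39 points (exact p 0.5). Without the regions with a peak in all 8 lists, which takes out regions with TFIIIC from both sets, TFIIIC was at 9.29% and 10.8% in RbL and 11.5% and 12.2% in WT, against 18.2% and 17.2% in RbL and 36.4% and 32.4% in WT for the other regions.

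Few of the 517 had TFIIIC in both libraries of 1 genotype and in neither of the other. The 2 RbL lists alone had a peak at 8 (1.55%, exact binomial 95% interval 0.67 to 3.03), with a background of 1.26% over all 8967 regions. The 2 WT lists alone had one at 7 (1.35%, 0.55 to 2.77), with a background of 7.75%. These counts rest on 4 libraries. Leaving out 1 RbL library gave 19 or 29 regions with RbL alone, and leaving out 1 WT library gave 28 or 35 with WT alone, since fewer libraries then had to have the peak. The background over all 8967 regions was not computed with a library left out, so those numbers cannot be read as high or low. All 4 libraries had a TFIIIC peak at 71 regions (13.7%, against 11.1% of the other regions) and none did at 325 (62.9%, against 40.3%). The strongest region with TFIIIC in RbL alone, on chromosome 1 from 182866445 to 182867665, had TFIIIC scores of 303 and 450 in RbL, CAP-D3 scores of 3100 in both genotypes and no CAP-H2. The strongest with TFIIIC in WT alone that was fully covered by the mark, on chromosome 17 from 28216570 to 28217382, had TFIIIC scores of 156 and 333 in WT, with CAP-D3 scores of 1932 in RbL and 2273 in WT.

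The narrower gap in H3K27me3 was seen at each level of CAP-D3 strength, with no test made per class. From the lowest to the highest of the 4 score classes, RbL minus WT was 0.49, −4.82, −1.04 and 0.94 points in H3K27me3, and −11.2, −13.7, −17.8 and −18.1 points at the other regions. By width class, from narrow to wide, it was 0, −2.48, 2.11 and −9.85 points in H3K27me3 and −7.35, −13.5, −17.0 and −22.4 points elsewhere. The widest class, with 66 regions, was therefore the one where the 2 RbL libraries (22.7% and 24.2%) lay furthest below the WT libraries (33.3% each).

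**Figure D4:**
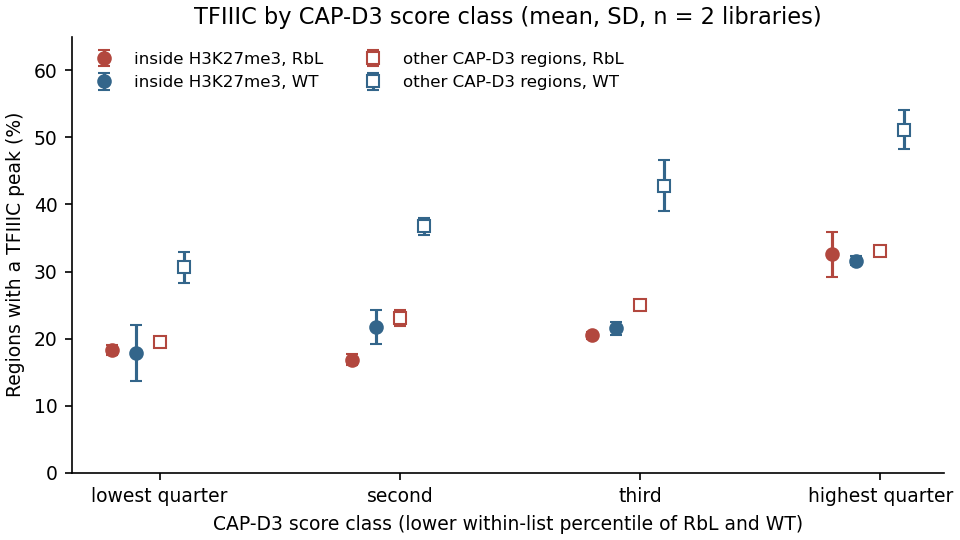
Share of CAP-D3 regions of both genotypes with a TFIIIC peak, in percent, by CAP-D3 score class, as the mean and SD of 2 libraries, for regions in H3K27me3 (filled) and other regions (open) in RbL (red) and WT (blue). The open WT points reach 51.2% in the highest class against 33.1% for RbL, while the filled points of the 2 genotypes are furthest apart in the second class, at −4.82 points.

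The presence of CAP-H2 divided the regions in TFIIIC. Among the 139 with CAP-H2 in both genotypes, TFIIIC was called at 55.4% and 51.8% in RbL and at 60.4% and 56.8% in WT. Among the 314 with CAP-H2 in neither, it was at 7.96% and 11.5% in RbL and at 8.28% and 9.87% in WT. The difference was 46.7 ± 4.86 points (SD, n = 4 libraries, higher in 4 of 4, two-sided exact sign-flip p 0.125). The 65 regions with a peak in all 8 lists, which have TFIIIC in all 4 libraries by definition, are all among the 139. Leaving them out therefore lowers the difference by construction, and the lower value cannot show how far the 2 calls go together. Without these, 74 regions had CAP-H2 in both genotypes, with TFIIIC at 16.2% and 9.46% in RbL and at 25.7% and 18.9% in WT. The difference then was 8.17 ± 7.95 points, and it went the other way in RbL library 2.

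Regions without CAP-H2 can be compared free of that group, since none of them has a peak in all 8 lists. TFIIIC was lower at the 314 in H3K27me3 than at the 1428 other CAP-D3 regions with CAP-H2 in neither genotype, which had it at 19.7% and 20.8% in RbL and at 23.0% and 21.1% in WT. The mean difference was −11.8 ± 2.21 points (SD, n = 4), lower in 4 of 4 libraries, with a two-sided exact sign-flip p of 0.125. RbL minus WT was 0.64 points at the 314 and −1.82 points at the 1428. At regions with CAP-H2 in both genotypes, TFIIIC was instead higher at the 139 in H3K27me3 than at the 5728 others in 4 of 4 libraries, by 26.9 and 25.0 points in RbL and 11.5 and 12.4 points in WT (mean 18.9 ± 8.10, SD, two-sided exact sign-flip p 0.125). Leaving out the regions with a peak in all 8 lists, which have TFIIIC by definition, took away 65 of the 139 and 764 of the 5728. The mean was then −9.95 points, over 74 and 4964 regions. As the removal was by TFIIIC itself and unequal, the change of sign cannot be read as a result. RbL minus WT was −5.04 points at the 139 and −19.0 points at the 5728, and without those regions −9.46 points at the 74 and −21.9 points at the 4964. In all, 237 of the 517 (45.8%) had neither CAP-H2 nor TFIIIC in any list, against 818 of the other regions (9.68%).

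TFIIIC and CAP-H2 were called at a larger share of regions in narrow H3K27me3 than in wide H3K27me3. With the 517 cut into 4 equal classes by the width of their H3K27me3 region, those of 606 to 2359 bp had TFIIIC at 55.4 ± 1.64% in RbL and 55.8 ± 5.48% in WT, and CAP-H2 at 61.2% in RbL and 65.9% in WT. In those of 8231 to 87482 bp, TFIIIC was at 9.23 ± 2.18% in RbL and 10.4 ± 2.72% in WT, and CAP-H2 at 18.5% in both (SD, n = 2 TFIIIC libraries per genotype). The narrow class held 55 of the 62 regions with a peak in all 12 lists. Without the regions with a peak in all 8 lists, the narrow class had CAP-H2 at 31.5% in RbL and 39.7% in WT, and TFIIIC at 21.2 ± 2.91% in RbL and 21.9 ± 9.69% in WT. The widest class then had CAP-H2 at 16.5% in both, and TFIIIC at 7.09 ± 2.23% in RbL and 8.27 ± 2.78% in WT. Over all 517, TFIIIC in H3K27me3 regions over 5 kb was lower than in narrower ones by −20.8 ± 2.75 points, in 4 of 4 libraries (two-sided exact sign-flip p 0.125).

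**Figure D5:**
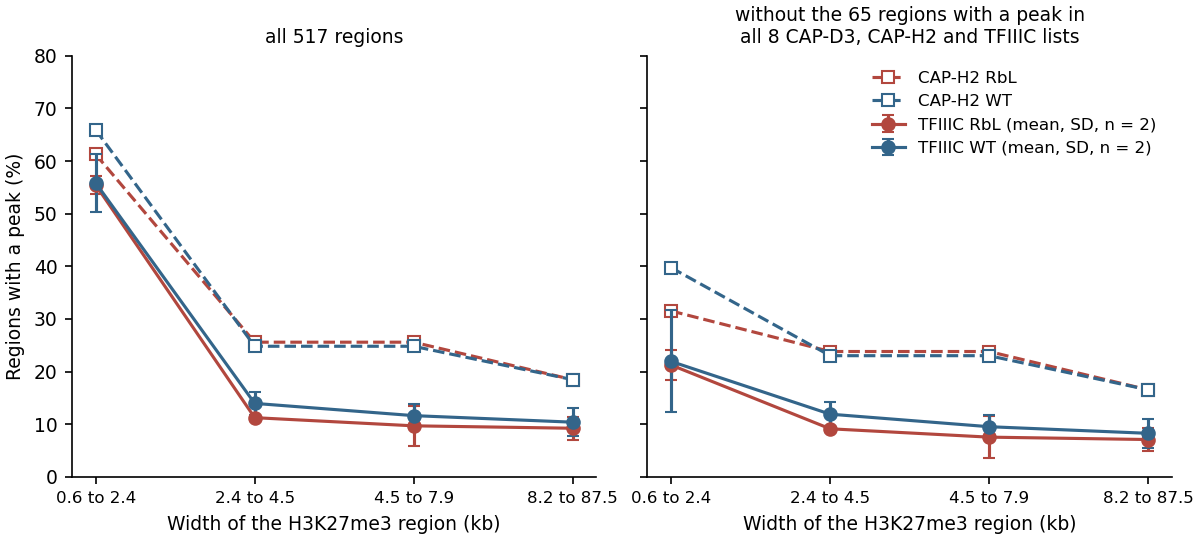
Share of the CAP-D3 regions in H3K27me3 with a CAP-H2 peak (open squares) or a TFIIIC peak (filled circles, mean and SD of 2 libraries), in percent, by the width of the H3K27me3 region in kb, in RbL (red) and WT (blue), with all 517 regions (left) and without the 65 with a peak in all 8 CAP-D3, CAP-H2 and TFIIIC lists (right). TFIIIC in the narrowest class is at 55.4% in RbL and 55.8% in WT on the left and at 21.2% and 21.9% on the right.

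Regions wholly within the domain had CAP-H2 at a smaller share than those across its edge. The 326 regions fully covered by the mark had CAP-H2 at 23.3% in RbL and 24.8% in WT, and the 191 covered in part at 48.7% in RbL and 48.2% in WT. The fully covered regions were also narrower, with a median width of 861 bp against 1056 bp. A wider region meets both an edge and a CAP-H2 peak more readily. Whether width accounts for the difference was not tested. TFIIIC was at 22.1% and 22.7% in RbL and 21.8% and 23.6% in WT where coverage was full, and at 18.3% and 20.9% in RbL and 24.1% and 22.5% in WT where it was partial. The mean TFIIIC difference was 1.08 ± 2.52 points (SD, n = 4 libraries, two-sided exact sign-flip p 0.5), with 1 library of 4 going the other way.

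Seen from the H3K27me3 regions, those that met one of the CAP-D3 regions had a larger share with CAP-H2 than those without CAP-D3. Of the 517 H3K27me3 regions of all libraries that overlapped one (the number happens to equal that of the CAP-D3 regions), CAP-H2 was called in 33.3% in RbL and 34.2% in WT, against 2.77% in RbL and 2.92% in WT of the 6579 with no CAP-D3 peak of either genotype. The TFIIIC shares were 43.9% and 47.6% in RbL and 35.0% and 43.3% in WT, against 48.5% and 50.4% in RbL and 28.0% and 37.8% in WT for those without CAP-D3. The mean difference was 1.29 ± 5.84 points (SD, n = 4, two-sided exact sign-flip p 0.75), and its sign differed by genotype: −4.61 and −2.79 points in RbL, against 7.01 and 5.54 points in WT. RbL minus WT of these was −9.98 points (two-sided exact permutation p 0.33). The mean over the 4 libraries, 1.29 points, became −6.30 points without the regions with a peak in all 12 lists, which takes out regions with TFIIIC by construction. It was −0.62 without WT TFIIIC library 1 and −0.13 without WT TFIIIC library 2. By 4 width classes of the H3K27me3 regions, the mean over the 4 libraries was 32.6 points for the narrowest, up to 2133 bp, and −22.0, −10.9 and −8.82 points for the others in order of width. Within each class the sign was the same in all 4 libraries, so the genotypes differed in sign only over all widths. In the narrowest class RbL had 62.6% and 60.9%, against 35.9% and 37.2% without CAP-D3. Of the 62 CAP-D3 regions with a peak in all 12 lists, 55 lay in H3K27me3 regions of up to 2359 bp. These have TFIIIC in every library by definition, and the classes were not computed without them. In the widest class WT had 34.0% and 45.8%, against 39.6% and 50.5% without CAP-D3.

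A smaller share of the CAP-D3 regions called in 1 genotype than of those called in both overlapped H3K27me3. Of regions with an RbL peak alone, 125 of 3813 (3.28%, exact binomial 95% interval 2.74 to 3.89) overlapped H3K27me3 of all libraries, and of those with a WT peak alone 293 of 7977 (3.67%, 3.27 to 4.11), against 5.77% (5.29 to 6.27) of the 8967 called in both. Regions called in both were merged from peaks of both lists, and a wider region meets H3K27me3 more readily. The shares were not compared at equal width. The intervals of RbL alone and WT alone overlap, and with 1 library each the genotypes could not be tested.

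The 517 lay on all 19 autosomes. Chromosome 2 held the most, with 45 of its 687 CAP-D3 regions of both genotypes, followed by chromosome 4 with 39 of 609 and chromosome 11 with 38 of 704. As a share of these regions, they ranged between 3.45% on chromosome 18 (9 of 261) and 7.65% on chromosome 12 (28 of 366).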

How the data were processed

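Peak lists of 12 ChIP-seq libraries were used, and the 8 inputs entered only through the authors' peak calling. The submitters' processing notes name Bowtie2 2.3.0, MACS 1.4.0rc2 and build mm9. Each library has a list of its own; settings are not given in the sources used here. The deposited score of each peak, in a column without a name, is what this program writes as −10 log10 of a p-value, and ties occur at 3100. It depends on depth and input and was used within a list only, as a rank or filter; scores of both genotypes are given as the authors' values.

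Groups came from the sample titles. Peaks were merged, counted and compared in Python 3.11.15 with numpy 2.4.6, pandas 2.3.3 and scipy 1.17.1, and the code was tested on simulated intervals. Any overlap of 1 bp counted. Shares have exact Clopper-Pearson 95% intervals, which cover counting error only. TFIIIC libraries, not regions, were the replicates of two-sided exact permutation and sign-flip tests. Classes were cut over all regions.

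Named regions follow a rule: the highest by the lower CAP-D3 percentile, those in the widest H3K27me3 regions, those with TFIIIC in 1 genotype, those in 8 windows of known loci, and those at the limit of overlap; the strongest fully covered region with TFIIIC in WT alone was chosen after its values were seen. The regions, lists and tests were chosen with earlier results of these data known. Coordinates are 1-based. Alternatives were a score of at least 100, other overlap and merging rules, each H3K27me3 or TFIIIC library left out, 200350 top-scoring TFIIIC peaks per library, chromosome X added, a replicate block and regions with peaks in all lists left out.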

Additional observations from a re-analysis of the deposited data

Results flagged for a closer look

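Of 14 TFIIIC contrasts made within libraries, 1 had opposite signs in the genotypes. The share of H3K27me3 regions with a TFIIIC peak, with one of the 517 CAP-D3 regions minus without CAP-D3, was −4.61 and −2.79 percentage points in the RbL libraries and 7.01 and 5.54 points in the WT libraries, with means of −3.70 in RbL and 6.28 in WT. RbL minus WT was −9.98 points, and the exact permutation test (two-sided) gave p 0.33, the smallest that 2 against 2 libraries allow. The opposite signs were seen over all widths of the H3K27me3 regions and in none of their 4 width classes. All 4 libraries were above 0 in the narrowest class, up to 2133 bp, and below 0 in each wider class. Whether the mix of widths accounts for the opposite signs was not tested. The RbL TFIIIC lists are longer than the WT lists. With 200350 top-scoring peaks per library, the mean over the 4 libraries was 1.83 points, against 1.29 with the lists as deposited. That mean cannot show whether the signs still differed at equal list length, since the values per library were not computed there.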

How the results depend on the processing

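Across 18 alternatives and 11 results, 131 of 155 values kept their direction or stayed within the limit set for them (1.5 times for a count, the 95% interval for a share). The number of CAP-D3 regions in H3K27me3 was 378 to 571. Their CAP-H2 share moved to 27.5% in WT at a score of at least 100, to 27.1% in RbL and 28.4% in WT where CAP-H2 had to cover at least 50% of the region, to 23.5% in RbL and 24.4% in WT without regions in all 12 lists, and to 23.0% in RbL and 23.9% in WT without those in all 8 lists (an alternative added after seeing the data, like the demand for all 4 H3K27me3 lists on the site itself). The mean TFIIIC difference between these and the other CAP-D3 regions was reversed, at 3.39 points, where TFIIIC had to cover at least 50% of the region. The cause was not tested. With equal numbers of top-scoring TFIIIC peaks, or with all 4 H3K27me3 lists on the site, this mean kept its sign. The RbL libraries were then on average higher in H3K27me3. The TFIIIC difference at H3K27me3 regions was reversed to −6.30 points without regions in all 12 lists and to −6.73 without those in all 8. Both remove regions with TFIIIC by construction. It ranged from −0.62 to 4.73 points with 1 library left out, and was below 0 without either WT TFIIIC library. Regions with TFIIIC in RbL alone numbered 2 and those in WT alone 4 under the 50% rule. Those in RbL alone were 4 with equal numbers of TFIIIC peaks and 4 with all 4 H3K27me3 lists on the site. With a library left out, they ranged from 7 to 29 in RbL alone and from 6 to 35 in WT alone. The background over all CAP-D3 regions of both genotypes was not computed under these alternatives, so these counts cannot be read as high or low. The share of CAP-D3 regions of 1 genotype in H3K27me3 was 3.90% in RbL and 4.53% in WT with gaps of up to 1 kb merged, and with an H3K27me3 library left out was 3.07% to 3.88% in RbL and 3.46% to 4.20% in WT.

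With the replicate number as a block, RbL minus WT in TFIIIC was the same −1.55 points, and the difference between the 2 sets of regions 13.6 points, with an exact sign-flip p of 0.5 each, the smallest that 2 pairs allow. The numbers showed no pairing, with a correlation of deviations of 0.03 over the 517 regions and 0.007 over all 8967. Unknown read depth limits every share, as does 1 library per genotype for CAP-D3 and CAP-H2.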
